A study of Macaca mulatta with 5 samples.

Results

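The prefrontal cortex of 1 infant rhesus macaque, aged 0.4 years, was set against that of 3 older macaques, aged 9, 22 and 26 years, in a map of histone H3 dimethylated at lysine 4 (H3K4me2). The members are therefore 4 of the 5 libraries of the series, 1 on the infant side and 3 on the older side, compared over 58414 of the 59189 deposited islands, those on the autosomes. An island is a stretch of enriched sequence that the authors called once on the 4 H3K4me2 libraries together. That pool holds 3 older libraries and 1 infant library, so a stretch high only in the infant enters less readily. The island shares and the counts of islands below and above are subject to this, and its part in them was not tested. Tissue came from a single animal centre, and the labels name no treatment or genetic change. Each H3K4me2 library is 1 animal, and the series' remaining library is unenriched chromatin (input) pooled from 7 animals that included these 4. The label of the tissue could not be checked against marker genes, because the files name no genes.

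Dimethylation of H3 lysine 4 is laid down by the COMPASS family of methyltransferases and removed by lysine demethylases such as LSD1. It marks promoters and enhancers, at active and at poised genes, and broad domains of H3K4 methylation are known from genes that define a cell's type. Between infancy and adulthood the primate prefrontal cortex prunes synapses, completes its myelination and gains glia. Bulk tissue mixes neurons and glia, so that fewer cells carrying the mark and less of the mark per cell cannot be told apart here. With 1 infant, age, animal and library preparation cannot be told apart either.

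The autosomes held 8402719 reads in the infant and 9405440, 10155000 and 10810296 reads at 9, 22 and 26 years. The infant library was thus the shallowest. The distance between reads of opposite strands that was most frequent inside islands, which reflects fragment length, was 151 bp in the infant, 128 to 135 bp in the older libraries and 89 bp in the input. Its part in the results below was not tested. Islands are given by position in the build of the deposited files, which is not given in the sources used here, so the gene, exon, intron or promoter at each one was not analysed here.

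The infant had the lowest island share of the 4 libraries. Of its autosomal reads 24.7% lay in islands (exact Clopper-Pearson 95% interval 24.66 to 24.72, counting error only), against 30.6%, 33.8% and 33.2% at 9, 22 and 26 years. The infant differed from the mean of the older animals by -7.85 percentage points, a gap wider than the spread of the older animals among themselves. For every read in autosomal 10 kb bins free of islands, called background reads here, the infant had 0.406 island reads and the older libraries had 0.563, 0.649 and 0.631. An exact one-sided permutation test over the 4 libraries gave p = 0.25, the smallest value that 1 library against 3 can give.

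Where along the chromosomes the infant differed was followed by distance from the nearest island edge. The infant deficit was largest deep inside islands, smaller at their edges and smaller again outside them. Background scaling sets the summed island-free reads equal, so a deficit near islands has to be met by an excess far from them, and the place where the sign turns is set by the scaling. The gradient itself does not depend on it. At 200 bp or less from the edge on the inner side, background-scaled density was 10.1 reads per kb in the infant and 12.9, 14.0 and 13.9 at 9, 22 and 26 years, a log2 difference of -0.43 between the infant and the mean of the older libraries. At 1 to 2 kb inside it was 11.3 against 16.1, 18.9 and 18.3 (log2 difference -0.65), and over 5 kb inside, in the widest islands, 12.4 against 19.2, 22.1 and 20.3 (-0.72). With background scaling the infant was below all 3 older libraries in each of the 7 inner zones. The zones were not scaled by total island reads.

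Outside islands the infant deficit faded with distance. In the first 200 bp beyond an edge the infant had 2.98 reads per kb and the older libraries 3.74, 3.77 and 3.73, a log2 difference of -0.33. It was -0.21 at 1 to 2 kb, -0.16 at 2 to 5 kb, -0.12 at 5 to 10 kb, -0.07 at 10 to 20 kb and -0.02 at 20 to 50 kb. At 50 to 100 kb the infant was slightly above all 3 older libraries (0.03), and beyond 100 kb it was above them by 0.11, with 1.83 reads per kb against 1.68, 1.70 and 1.70. The 3 older libraries differed little from each other here. In the zone beyond 100 kb the infant's log2 ratio to each of them was 0.12, 0.11 and 0.11, and in the first 200 bp it was -0.33, -0.34 and -0.32. Scaled by total autosomal reads, the difference was -0.01 at 1 to 2 kb outside and already 0.04 at 2 to 5 kb, and it reached 0.31 beyond 100 kb. With bins at least 20 kb from any island the infant's median island difference was -0.56, and with all 10 kb bins free of islands it was -0.51.

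**Figure D1:**
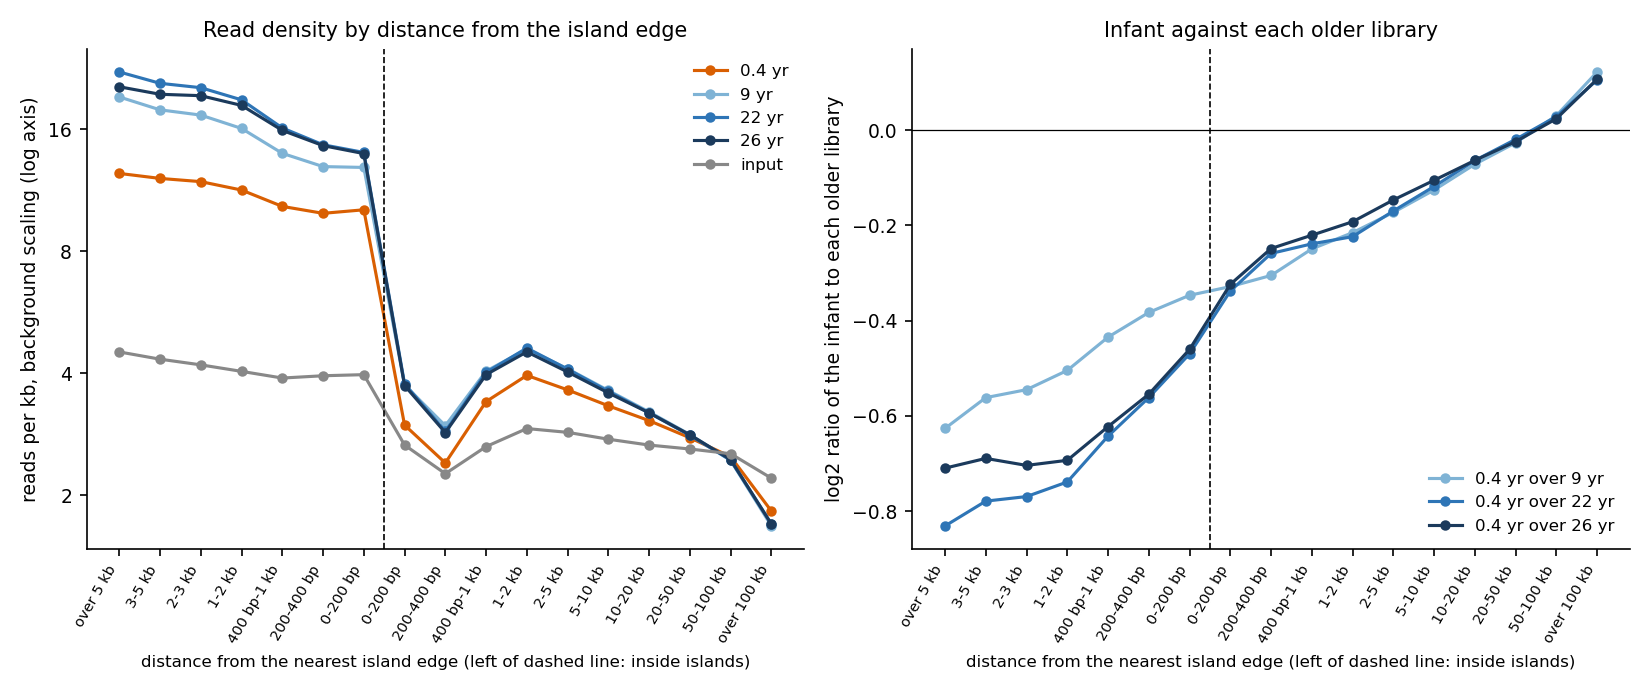
Left, reads per kb after background scaling (log axis) by distance from the nearest island edge, inside islands left of the dashed line and outside right of it, for the 4 H3K4me2 libraries and the input. Right, the log2 ratio of the infant to each older library over the same zones, which lies between -0.83 and -0.63 deep inside islands and rises to between 0.11 and 0.12 beyond 100 kb. The dip just outside the edge is shared by the input.

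The same zones were read as excess over the input density, scaled alike. At 1 to 2 kb inside an edge the infant's excess was 0.531 of the mean excess of the older libraries, and over 5 kb inside it was 0.494. Just outside the edge it was lower, at 0.294 in the first 200 bp and 0.222 at 200 to 400 bp, where the excess of every library is small. It was 0.624 at 1 to 2 kb outside, 0.672 at 5 to 10 kb and 0.79 at 20 to 50 kb. Beyond 50 kb all 4 libraries lay below the scaled input, so no such ratio is given there.

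For single islands, the infant was called below or above when its scaled count lay outside the range of all 3 older libraries. With background scaling the infant was below all 3 in 39754 islands (68.1%), above all 3 in 2712 (4.64%) and inside their range in 15948. With scaling by total island reads, which sets the summed signal equal, it was below in 14362 (24.6%), above in 20552 (35.2%) and inside in 23500. The median log2 difference from the older mean was -0.51 with the first scaling and 0.08 with the second. The infant has the fewest island reads per background read, so the second scaling raises it against every older library at every island. By that arithmetic alone, every island below with the second scaling was below with the first. Every island above with the first was likewise above with the second. Another 6623 islands (11.3%) were below with background scaling and above with island-total scaling, so their side is set by the scaling. Subtraction of scaled input before the second scaling changed these counts little, to 16080 below and 19880 above. Leaving out an older library narrows the range, so counts outside it can only rise. The count above, under background scaling, became 3696 with the 9 yr animal left out, 5133 with the 22 yr and 4663 with the 26 yr animal left out. Near the boundary of the range, 3565 islands were below the lowest older library by less than 0.1 log2 units, and 4222 were inside it by less than that.

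**Figure D2:**
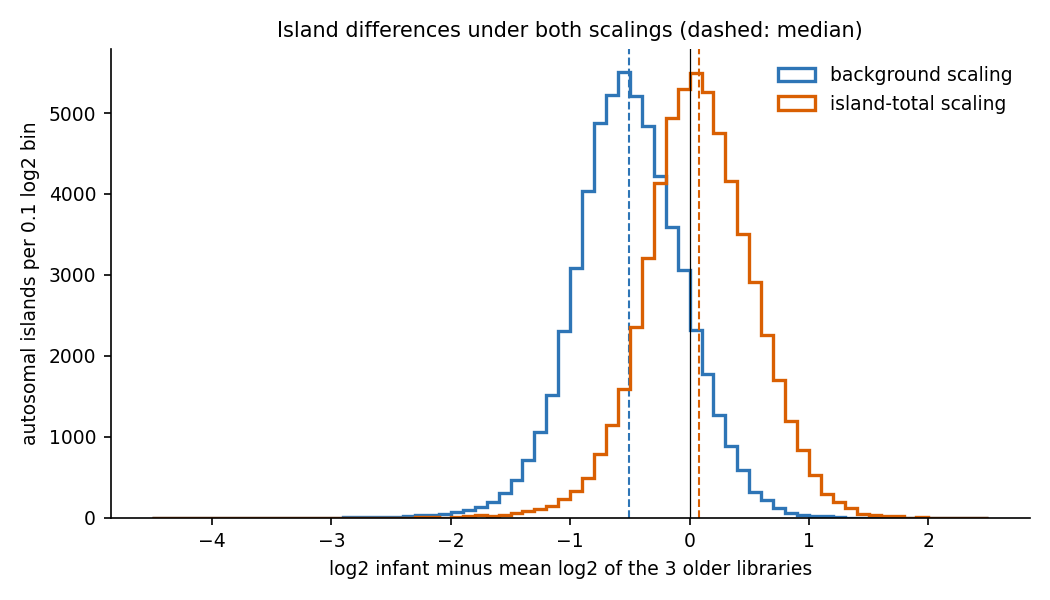
Number of autosomal islands (bins of 0.1 log2 units) by the log2 difference between the infant and the mean of the 3 older libraries, with background scaling (blue) and island-total scaling (orange). The medians, drawn as dashed lines, are -0.51 and 0.08, and the distributions overlap.

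Islands below had a higher authors' fold than those above. That fold draws on the libraries compared, most of them older, so the order is partly built in. With background scaling, islands below had a median width of 3000 bp and a median authors' fold over input of 2.63. Those above had 2000 bp and 1.86, and those inside the range 2200 bp and 2.00. With island-total scaling the widths were close, at 2800 bp below and 2600 bp above, and the folds were 3.49 and 1.93.

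Large gaps were mostly in 1 direction with background scaling. Among the 35494 islands with at least 100 reads over the 4 libraries, the infant lay at least 1.5-fold below the nearest older library in 9653 (27.2%) and at least 1.5-fold above it in 12 (0.0338%). At 2-fold the numbers were 1561 (4.4%) and 3 (0.00845%). With island-total scaling they were nearly balanced, at 690 (1.94%) below and 887 (2.5%) above for 1.5-fold, and 60 (0.169%) and 57 (0.161%) for 2-fold. In the islands where the infant was below with background scaling, the 9 yr library was the nearest of the older ones in 52.4%, the 22 yr library in 23.9% and the 26 yr library in 23.7%. With island-total scaling these shares were 35.3%, 35.5% and 29.3%, so the excess of the 9 yr library, which has the lowest island share of the older animals, was seen with background scaling only.

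A test over all islands depended on the same choice. With background scaling, edgeR's quasi-likelihood test of the infant against the 3 older libraries called 7780 of 58343 islands lower in the infant (13.3%) and 17 higher (0.0291%) at a false discovery rate of 0.05. With island-total scaling it called 4 lower (0.00685%) and 13 higher (0.0223%) of 58374. The 4 lower islands were among the 7780, and 6 of the 13 were among the 17. Single libraries moved these counts. With background scaling, 14120 islands were lower when the 9 yr animal was left out and 4973 when the 22 yr animal was. Leaving out the 26 yr animal gave 67 lower and 1 higher. With island-total scaling, omission of the 22 yr animal gave 98 lower and 85 higher, and omission of the 26 yr animal 8 and 28. Without the 26 yr animal the median edgeR log2 difference with background scaling was -0.52, against -0.54 with all libraries. The common coefficient of variation that edgeR estimated was 0.136 with all libraries. It was 0.119, 0.124 and 0.160 without the 9, 22 and 26 yr animal. The 2 residual degrees of freedom of the full fit come from the older animals, which differ in age, and the lone infant is assumed to vary like them. Fits without an older animal have fewer, from the remaining older animals alone, so the estimated variance moves with the animal left out. In simulated counts for 58178 islands the test found 26% of 2-fold and 86% of 4-fold changes. The changed islands all had at least 100 reads over the libraries, so these shares do not hold for islands with fewer. The test also called 9 islands that the simulation had left unchanged.

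Island strength, the authors' fold over input, ordered the infant's position under both scalings. Islands were split into 4 strength classes of near equal size. From the weakest to the strongest class the infant was below all 3 older libraries in 54.8%, 59.2%, 71.1% and 87.1% of the islands with background scaling, and above in 7.7%, 6.35%, 3.56% and 0.952%. With island-total scaling the same classes had the infant above in 53.7%, 44.1%, 29.6% and 13.3% and below in 10.6%, 14.9%, 27.1% and 45.8%. In that scaling the median difference ran from 0.28 in the weakest class to -0.15 in the strongest. With scaled input subtracted the range was narrower, from 0.25 to -0.04, and the shares above ran from 40.1% to 24.9%. The edgeR calls with background scaling were 378, 728, 2027 and 4647 lower islands from the weakest to the strongest class, or 2.58% and 31.8% of the outer classes against 13.3% overall.

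The fold itself draws on the libraries compared, and the grouping mattered. With islands grouped by the fold of 1 older library and the infant compared with the other 2 only, the medians ran from -0.34 to -0.83 (grouped by 9 yr), from -0.30 to -0.70 (by 22 yr) and from -0.33 to -0.69 (by 26 yr). Grouped by the infant's own fold they were -0.65, -0.36, -0.38 and -0.60 from the weakest to the strongest class, which turned the difference between the outer classes from -0.44 to 0.055. That grouping uses the infant's count, the value under comparison.

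**Figure D3:**
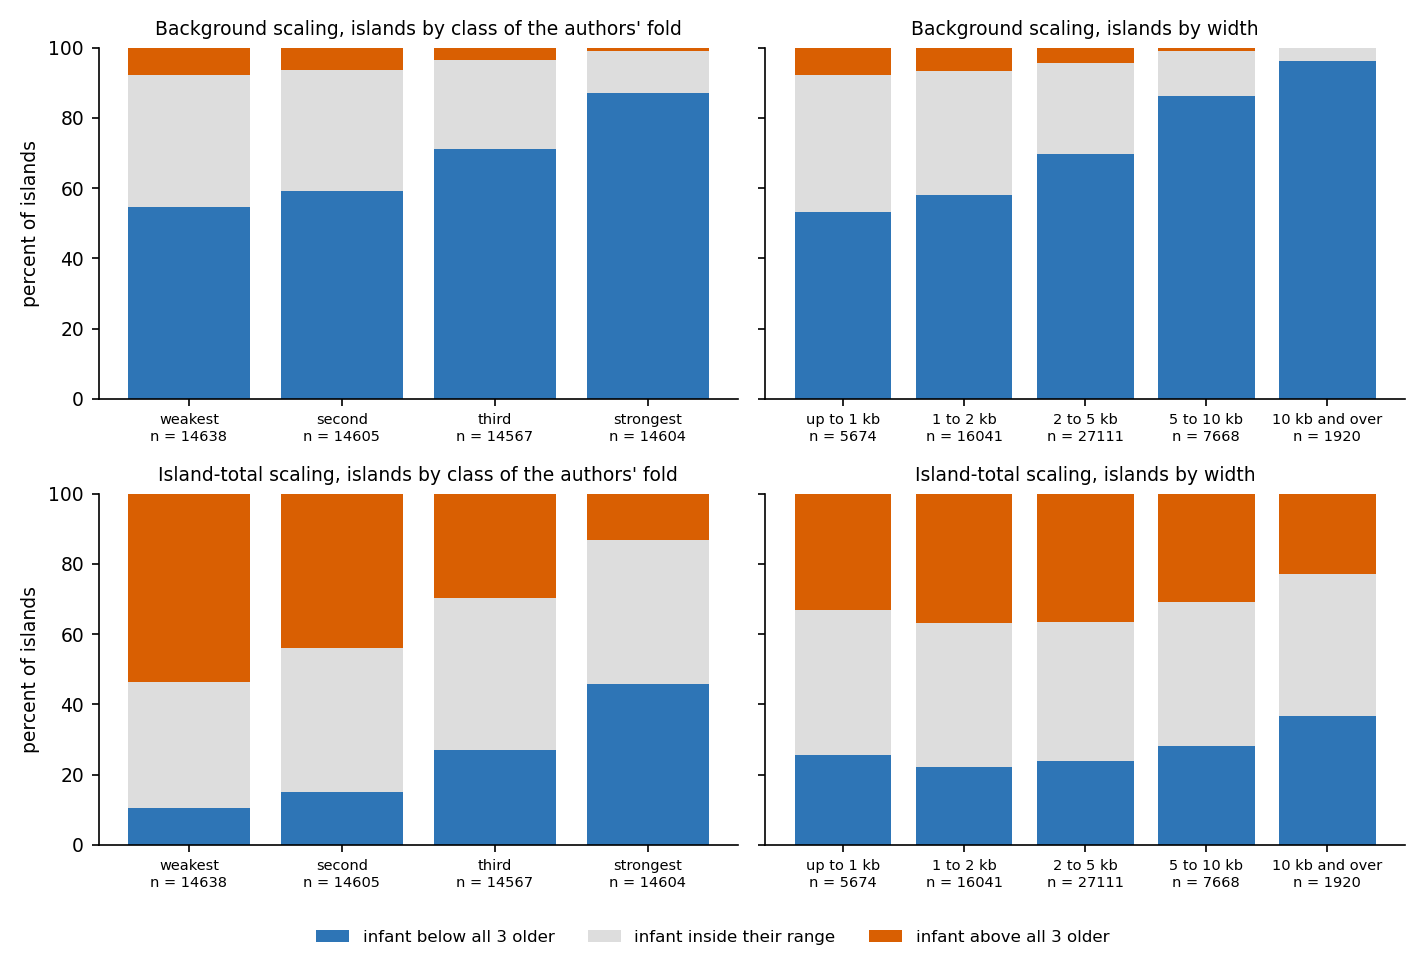
Percent of autosomal islands with the infant below (blue), inside (grey) or above (orange) the range of the 3 older libraries, by class of the authors' fold (left) and by island width (right), with background scaling (top) and island-total scaling (bottom). Blue grows from the weakest to the strongest class in both scalings, from 54.8% to 87.1% and from 10.6% to 45.8%.

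Wide islands were below the older range most often. With background scaling the infant was below in 53.2% of the 5674 islands of up to 1 kb, 58.2% of those of 1 to 2 kb, 69.9% at 2 to 5 kb, 86.2% at 5 to 10 kb and 96.1% of the 1920 islands of 10 kb and over. Only 3 of these widest islands had the infant above. The medians changed less, from -0.49 in the narrowest class to -0.64 in the widest. Wide islands hold more reads (a median of 862 over the 4 libraries against 51 in the narrowest class). Within the strongest class the median was -0.63 in islands of up to 1 kb and -0.76 in those of 10 kb and over, and within the weakest class -0.22 and -0.40. With island-total scaling the infant was below in 25.7% of the narrowest and 36.6% of the widest islands.

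Strength still ordered the islands among those of similar read number, split into 5 classes. In the class with fewest reads the median difference was -0.27 at the weakest and -0.52 at the strongest islands, and in the class with most reads -0.39 and -0.77. Among the strongest islands the infant was below in 55.8% of those with fewest reads and 97.7% of those with most. By input density, the infant was below in 69.3% of islands in the lowest of 4 classes and 64.6% in the highest. With island-total scaling it was above in 29.3%, 34.4%, 36.4% and 40.9% from the lowest to the highest class. By position along the chromosome, with background scaling, 69.3% were below within 1 Mb of a chromosome's end, 64.6% at 2 to 5 Mb and 68.6% at over 10 Mb.

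On all 20 autosomes the infant had fewer island reads than any older library, per background read of all autosomes together. A chromosome's own background reads were not used as the divisor. The log2 difference of their sums was largest on chromosome 19 (-0.64) and chromosome 5 (-0.63) and smallest on chromosome 10 (-0.53) and chromosome 11 (-0.57). Chromosomes 19 and 5 are opposites in island density, at 55.5 and 8.4 islands per Mb. On chromosome 10 the infant was above all 3 older libraries once total island reads were set equal, by 0.06 on average, and on chromosome 19 it was below all of them by 0.05. With that scaling 9 of the 20 autosomes, chromosomes 10 and 11 among them, had a positive difference. The infant was above all older libraries on 3 of them (10, 11 and 13) and below all on 4. With background scaling the difference between the most extreme chromosomes was smaller than the spread that the older libraries gave on any 1 of them. On chromosome 10, for example, the infant's log2 ratio ran from -0.65 to -0.40 depending on the older library. That spread holds each older library's island share over all autosomes, which is common to every chromosome and cancels when chromosomes are compared. With island-total scaling the ratio ran from 0.03 to 0.08 on chromosome 10 and from -0.07 to -0.01 on chromosome 19.

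Background reads themselves varied by chromosome in the infant. Relative to the older libraries they were above all 3 on chromosomes 5, 6, 8, 13, 17 and 18, and below all 3 on chromosomes 1, 7, 10, 16, 19 and 20. The difference was 0.06 on chromosome 5, the one with fewest islands per Mb, and -0.08 on chromosome 16, which has 50.8 per Mb. The 6 chromosomes with more infant background held 8.4 to 17.6 islands per Mb and the 6 with less held 23.2 to 55.5.

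**Figure D4:**
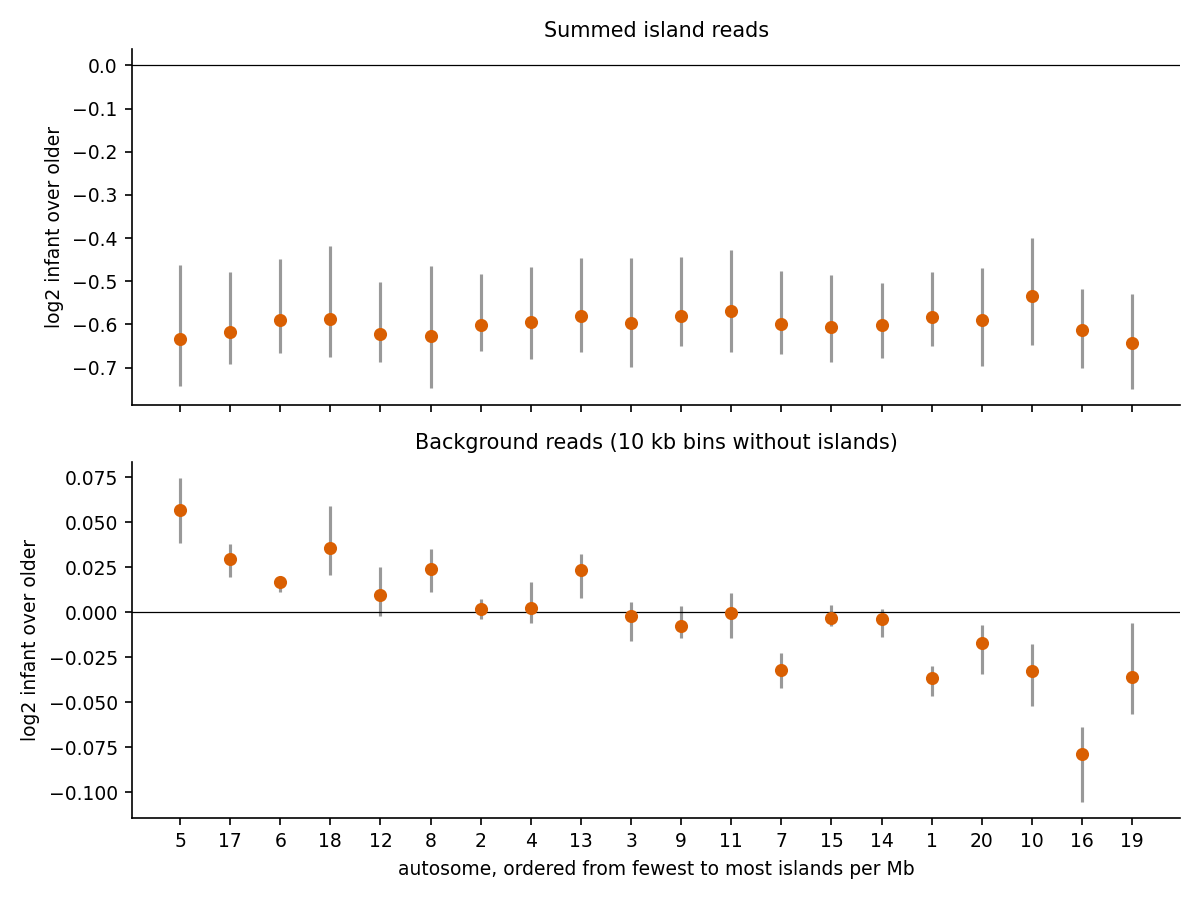
Log2 ratio of the infant to the older libraries by autosome, ordered from fewest to most islands per Mb, for summed island reads (top) and for reads in 10 kb bins without islands (bottom), both with background scaling. Points are the infant minus the mean of the 3 older libraries and lines span its ratios to each of them. Island sums lie between -0.53 and -0.64 on all 20 autosomes, and background differences fall from 0.06 on chromosome 5 to -0.08 on chromosome 16.

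Neighbouring islands shared a side only slightly more often than others. With background scaling, the next island was below in 70.2% of cases after an island that was below and in 63.5% after one that was not. This difference of 6.65 percentage points was 4.37 once the 9 yr animal was left out. After an island that was above, the next was above in 7.56% of cases, and in 4.50% otherwise. At a gap of 600 bp to 1 kb, the closest class, 75.9% and 69.0% of the next islands were below, and with island-total scaling 34.4% and 24.1%. The Pearson correlation of the log2 differences of neighbours was 0.16 over those 11010 pairs and 0.06 over the 9883 pairs more than 50 kb apart. Neighbours share their libraries and local background, and the correlation is a description only. By isolation, the infant was below in 73.2% of islands with another within 1 kb, in 62.5% with the nearest at 5 to 10 kb and in 70.9% of those with none within 50 kb. The last group was also strong, with a median authors' fold of 3.64 against 2.16 at 5 to 10 kb.

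Runs of consecutive islands on 1 side, with at most 50 kb between neighbours, were long where the infant was below. With background scaling the longest held 40 islands at chr1:5227001-5614000. Its summed reads were 2877 in the infant and 4406, 5595 and 4917 at 9, 22 and 26 years, a scaled log2 difference of -0.72 that is 0.61 beyond the nearest older library. A run of 33 islands at chr20:612001-888200 had 2122 reads in the infant against 3577, 4689 and 4105 (-0.88), and a run of 29 at chr16:6841601-7152400 had 2191 against 3493, 4078 and 4123 (-0.76). These runs stand against a share of 68.1% of all islands below, and their islands were wide, with median widths of 5400, 4200 and 5000 bp against 2600 bp over all islands. Their median folds were 2.08, 2.45 and 3.23. Runs with the infant above held at most 3 islands, against a share of 4.64% of all islands above. An example is chr10:91757401-91805200, with 155 reads in the infant and 87, 134 and 136 in the older libraries.

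With island-total scaling the longest run below had 11 islands, at chr17:94145201-94237000 near the end of that chromosome, with 602 reads in the infant against 1067, 1427 and 1298 (log2 difference -0.40). A run of 9 at chr10:85324001-85390000 had 429 against 784, 874 and 974 (-0.36), and a run of 8 at chr15:106867001-106906600 had 232 against 584, 529 and 639 (-0.66). The longest runs above were 16 islands at chr15:2932801-3117000 (756 reads against 774, 1048 and 842, difference 0.44) and 14 at chr8:136025001-136138400 (760 against 792, 824 and 959, difference 0.49). The islands of both had a median authors' fold of 1.67, under the median of 2.32 over all autosomal islands. Runs with this scaling stand against shares of 24.6% of all islands below and 35.2% above.

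In windows of 1 Mb the infant was low nearly throughout with background scaling. Of 1930 windows with enough reads, summed island reads were below all 3 older libraries in 1913 and above them in 0 with background scaling, and 5% of the windows had a difference under -0.86 and 5% a difference over -0.36. With island-total scaling it was below in 550 and above in 479, with differences from -0.66 to 0.62. The lowest window, picked after its value was seen, was 9 to 10 Mb on chromosome 5, where 8 islands held 182 reads in the infant and 454, 404 and 511 in the older libraries. The difference of -1.25 had no counterpart in that window's background reads, at -0.02. In the highest, 71 to 72 Mb on chromosome 18, 14 islands held 388 reads against 364, 370 and 472 (0.03), which put the infant inside the older range.

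Single islands at the extremes were named by 2 orders, the smallest edgeR p and the widest gap to the nearest older library at 100 reads or more, in each direction and scaling. Of the 24 islands named, 13 had the infant below and 11 above, and each was on the same side of the older range with both scalings. The widest gap below was at chr16:15521001-15523000, which had 3 reads in the infant and 35, 37 and 46 at 9, 22 and 26 years, against 9 in the input. All 3 older libraries were high and close together there, with the infant far under them. The log2 ratio to the nearest older library was -3.35 (exact 95% counting interval -5.89 to -1.88), and the edgeR adjusted p was 3.3e-05 with background scaling and 0.039 with island-total scaling. Reads outside islands within 20 kb were 109 in the infant and 150, 156 and 161 in the others.

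At chr10:85182401-85186600 the infant had 32 reads and the older libraries 144, 138 and 148. The older animals were nearly level, and the infant lay 2.04 log2 units under the nearest of them (interval -2.65 to -1.50). This island passed with both scalings, with edgeR log2 differences of -2.09 ± 0.34 and -1.50 ± 0.28 (± SE) and adjusted p-values of 1.2e-05 and 0.014. The island chr16:52077201-52086200, 9 kb wide, had 77 reads in the infant and 288, 199 and 360 in the older libraries. It also passed with both (edgeR adjusted p = 4e-06 and 0.031), although its older counts were spread. At chr7:63887601-63893200, the remaining call with island-total scaling, counts were 59 against 177, 198 and 236 (edgeR adjusted p = 5.8e-05 and 0.047).

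The widest named islands held most reads and gave tight intervals. The island chr15:98582001-98606400 spans 24.4 kb and had 402 reads in the infant against 1013, 997 and 1168. Scaled to background these were 417 against 1049, 1001 and 1088, with the older animals close together. The log2 ratio to the nearest was -1.26 (interval -1.43 to -1.10). The edgeR adjusted p was 7e-06 with background scaling and 0.056 with island-total scaling. The islands chr6:425201-447200 (232 reads against 546, 627 and 743) and chr12:95547801-95558600 (142 against 406, 354 and 491) likewise passed with background scaling only, at edgeR adjusted p-values of 2.1e-05 and 3e-05. With island-total scaling both had 0.057. With background scaling and the 26 yr animal left out, these 3 wide islands were not called (edgeR adjusted p = 0.071, 0.070 and 0.061), and chr7:57835201-57836400, described next, was not called either (0.062).

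Other islands below varied among the older animals. At chr16:53378601-53380800 the infant had 56 reads and the others 321, 120 and 272, so that the 22 yr library lay between the infant and the rest. At chr7:57835201-57836400 the counts were 4 in the infant and 18, 31 and 57 in the others, in order of age, and reads within 20 kb outside islands rose alike, from 30 to 80, 123 and 136. At chr20:944401-946600 the infant had 12 reads against 91, 56 and 67, with flanks of 29 against 68, 50 and 54. Low flanks were common among the named islands below. Background-scaled reads outside islands within 20 kb were below all 3 older libraries at 11 of the 13, for example 72 against 117, 123 and 153 at chr6:425201-447200 and 36 against 81, 54 and 67 at chr16:52077201-52086200. Over all islands together the infant was likewise below all 3 older libraries in each zone up to 20 kb outside. The log2 difference there was -0.33 in the first 200 bp and -0.07 at 10 to 20 kb. How many of all islands had low flanks was not counted, and the part of the flanks in the differences was not tested. At chr2:138801001-138802000, by contrast, the infant had 6 reads against 30, 41 and 32 while flanks were not lower, at 119 against 108, 113 and 130. The first island of the chromosome 15 run, chr15:106867001-106869800, had 16 reads against 63, 73 and 84, again with low flanks, at 28 against 72, 50 and 83. The island chr14:9676801-9678600 had 6 reads against 36, 30 and 30, with 4 to 8 flanking reads in every library.

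The 11 named islands above had authors' folds of 1.39 to 2.54, against 2.55 to 8.06 in the 13 below. The fold draws on the same counts that chose these islands, mostly from older libraries, so this order is partly built in. Flanks were below all 3 older libraries at 4 of these 11 and above at 3. The same shares over all islands were not counted. The island with the smallest edgeR p, chr5:181734001-181734600, is 600 bp wide and had 106 reads in the infant against 29, 38 and 48, with 42 in the input and an authors' fold of 1.46. The infant was above every older library, while flanking reads were level, at 80 against 73, 94 and 92. The edgeR log2 difference was 1.54 ± 0.30 with background scaling (adjusted p = 0.00041) and 2.14 ± 0.26 with island-total scaling (adjusted p = 5.9e-07). At chr6:5599401-5600600 the infant had 50 reads against 18, 19 and 23 (edgeR adjusted p = 0.0057 and 0.0043 in the same order), and at chr4:166297601-166298600 it had 64 against 27, 29 and 34 (0.013 and 0.0043). In both the older libraries were close together. The island chr4:165438801-165439400, under 1 Mb away on chromosome 4, had 29 reads against 8, 11 and 12 (edgeR adjusted p = 0.013 and 0.032), and chr19:35855601-35859000 had 50 against 22, 28 and 20 (0.017 and 0.014). With the 26 yr animal left out and background scaling, these last 4 islands were no longer called (edgeR adjusted p = 0.070, 0.093, 0.089 and 0.14), whereas the island on chromosome 5 still was (0.029).

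The other named islands above were called with 1 scaling or none. At chr7:46840001-46841400 the infant had 28 reads against 9, 13 and 12 (edgeR adjusted p = 0.026 with background scaling, 0.12 when the 26 yr animal was also left out, and 0.056 with island-total scaling). The islands chr11:2842201-2844200, with 81 against 45, 57 and 41, and chr16:26165201-26171800, with 204 against 143, 142 and 179, passed with island-total scaling alone (edgeR adjusted p = 0.014 and 0.0069). The last of these has an authors' fold of 1.49. At chr10:49506601-49507600 counts were 48 against 27, 22 and 30, and flanking reads were also higher in the infant, at 170 against 126, 123 and 134. Its edgeR adjusted p was 0.051 and 0.056. The islands chr17:93005001-93007000 (45 reads against 27, 23 and 27) and chr13:135075801-135077800 (40 against 19, 26 and 27) were called with neither scaling, and at the latter the counting interval of the ratio to the nearest older library included 0 with background scaling (-0.08 to 1.44).

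**Figure D5:**
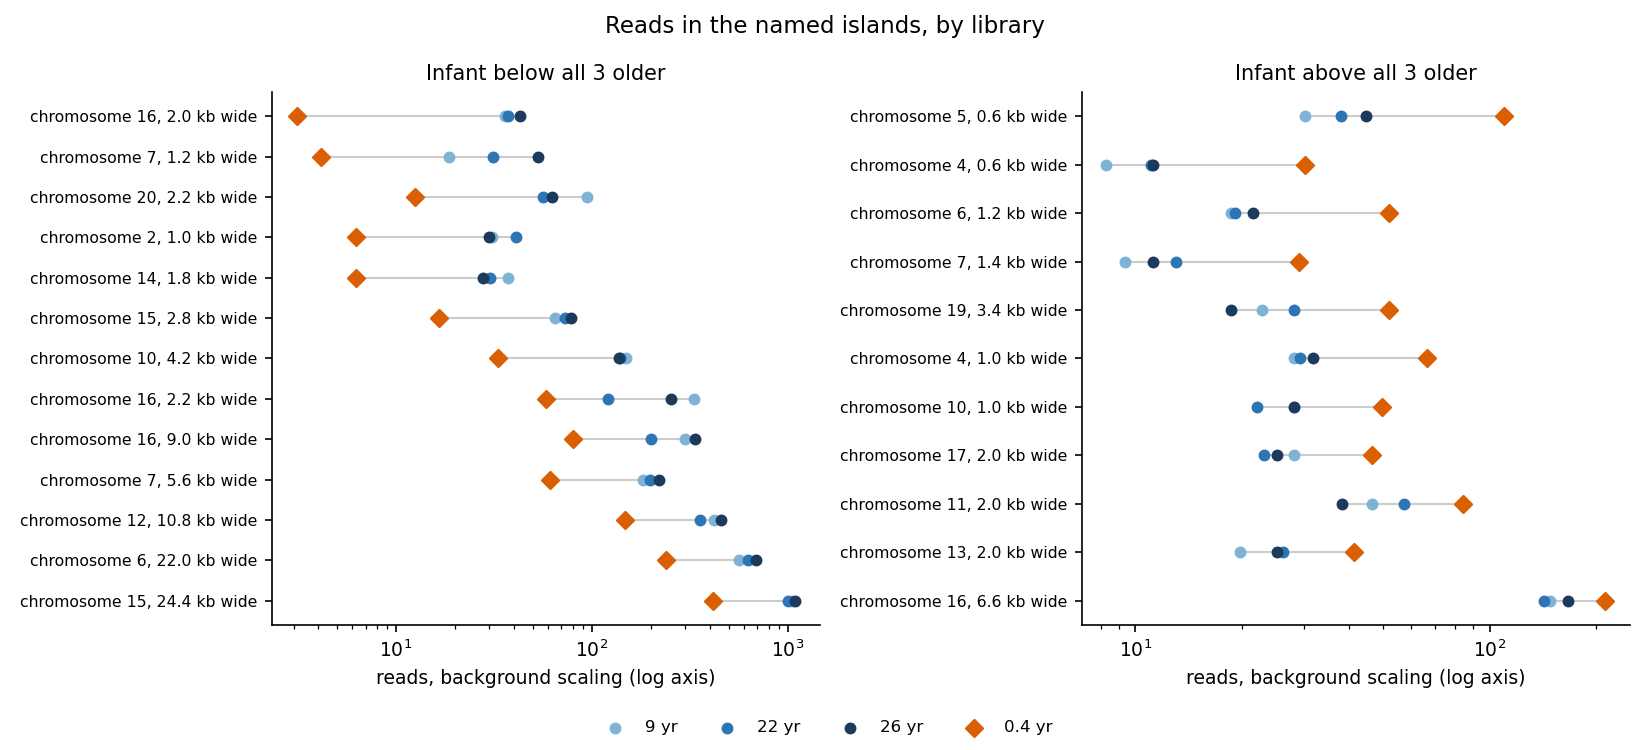
Reads per library with background scaling (log axis) in the 13 named islands with the infant below all 3 older libraries (left) and the 11 with the infant above (right), each labelled by chromosome and width. Orange diamonds are the infant and blue points the 9, 22 and 26 yr libraries, and in each row the infant lies outside the older range.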

How the data were processed

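The 4 H3K4me2 libraries and 1 input were deposited as aligned reads of 35 bases, with no 2 reads of a library sharing start and strand. SICER is the caller that the submitters' processing notes name. By its title, the deposited island table used windows of 200 bp, gaps of up to 400 bp and a rate of 0.001. Without a header, its columns were identified on the reads. They hold the deposited count of pooled H3K4me2 reads (within 2 reads of the pooled count made here in 98.5% of islands), the deposited count of input reads (equal in 86.6%), the authors' p-value, the authors' fold (a ratio to input scaled by totals) and the adjusted p-value. The aligner and the build: not given in the sources used here.

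Reads were counted per autosomal island with the 5' end moved 75 bp towards the 3' end. Counts were divided by reads in 215567 island-free 10 kb bins, or by total island reads, each relative to its mean over the 4 libraries. Log2 differences use a pseudocount of 0.5 reads. A tie counts as inside the range. Islands with at least 10 reads over the 4 libraries entered, which was all of them. Subtraction of scaled input leaves the side of an island nearly as it is with background scaling. The test was edgeR 4.0.16 (R 4.3.3), quasi-likelihood, group only, filter minimum 10, Benjamini-Hochberg at 0.05, tested on simulated counts with 200 changed islands. The simulation gave all islands 1 common dispersion and held no overall shift between infant and older libraries. With background scaling edgeR took the variance wholly from the trend over islands (infinite prior degrees of freedom). Counting intervals of ratios are exact conditional binomial at 95%. All intervals cover counting error only, since reads carry no molecular identifiers.

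The naming rule took, per direction and scaling, the 6 islands outside the older range with the smallest p and the 6 with the widest gap at 100 reads or more, then the 3 longest runs and the 2 highest and 2 lowest autosomes. The comparison, lists and rules were chosen with earlier results of these data known. Alternatives were other scalings, DESeq2 1.42.0, limma-voom 3.58.1, filters, read positions, groupings and leaving out each older library. Added after seeing the data were the strength grouping by 1 older library, the alternatives for the median island difference, and left-out libraries, DESeq2 and limma-voom with island-total scaling. The 3 older animals differ in age, so their spread is not that of animals of one age. Counting used Python 3.11.15 with pandas 2.3.3 and numpy 2.4.6. Intervals came from scipy 1.17.1, figures from matplotlib 3.10.9.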

Additional observations from a re-analysis of the deposited data

Results flagged for a closer look

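The X chromosome was kept out of the comparison, because the labels give no sex, but its 775 islands held signal above the input. Of the infant's X reads 9.82% lay in islands. The share was 14.1% in the 9 yr animal, 16.6% in the 22 yr animal and 16.7% in the 26 yr animal, and 2.22% in the input. With background scaling the infant was below all 3 older libraries in 82.6% of X islands and above in 0.774%, with a median log2 difference of -0.75. With island-total scaling it was below in 44.1% and above in 15.9%, with a median of -0.16.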

How the results depend on the processing

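No paired analysis was possible, because each H3K4me2 library is a different animal. The infant's share of reads in islands held under every alternative run for it. The infant's sign 1 to 2 kb inside islands held with total autosomal reads and without each older library. Neither island-total scaling nor TMM was run for that zone. Scaling decided the island counts. Islands below and above numbered 14362 and 20552 with island-total scaling, 17481 and 17118 with TMM, and the count above was 6138 with total reads. With at least 200 reads they were 17094 and 140, or 90.3% and 0.74% of the 18922 islands that enter. The counts above ran from 3696 to 5133 without 1 older library. The median island difference was 0.075 with island-total scaling, 0.0065 with TMM and -0.32 with total reads. Autosomes with the infant below were 20 with background scaling, 20 with total reads, 19 with TMM and 4 with island-total scaling. Island-total scaling sets the summed island reads equal, so not all autosomes can stay below with it. There 9 of 20 autosomes had a positive difference, with chromosomes 11 and 10 at 0.027 and 0.062.

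Calls lower in the infant were 4 with island-total scaling, 13 with TMM and 852 with total reads, 3777 by DESeq2 and 5014 by limma-voom, and 67 to 14120 without 1 older library. Calls higher were 9 with TMM, 10 with total reads, 0 by DESeq2 (5 at an unadjusted p under 0.05) and 1 to 19 without 1 older library. With island-total scaling, DESeq2 called 0 lower (447 at an unadjusted p under 0.05) and 1 higher, limma-voom 1 and 11, and leaving out 1 older library gave 4, 98 and 8 lower and 18, 85 and 28 higher in order of age. The difference between the widest and narrowest islands went from -0.16 to -0.30 after input subtraction, and that between the strongest and weakest class from -0.44 to -0.31, and to 0.055 when grouped by the infant's own fold. Neighbours differed by 4.37 to 7.24 percentage points without 1 older library. With total reads the difference 1 to 2 kb inside islands was -0.45, in the first 200 bp outside -0.13, at 20 to 50 kb 0.18 and beyond 100 kb 0.31. Of the 24 named islands, 9 lost their edgeR call without the 26 yr library and 10 with island-total scaling, and none changed sign. Not all of the 24 had a call with background scaling to lose. The islands chr11:2842201-2844200 and chr16:26165201-26171800 gained a call with island-total scaling. The causes of these changes were not tested. Of simulated 2-fold changes in 1 library against 3, all in islands with at least 100 reads, 26% were called.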
